A study of Homo sapiens with 10 samples.

Results

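The tumor suppressor p53 is a transcription factor that is kept scarce by MDM2, an E3 ligase that marks it for degradation. When p53 is stabilized it binds a palindromic DNA element near its targets and raises their transcription. Besides the well known targets of cell cycle arrest and cell death, a group of targets acts in DNA repair, nucleotide supply and metabolic stress. Here 10 such genes were followed by RNA sequencing. They were chosen by name: XPC and DDB2 of nucleotide excision repair, POLH of translesion synthesis, RRM2B of deoxynucleotide supply, FDXR of mitochondrial electron transfer, the sestrins SESN1 and SESN2, the stress sensor GADD45A, the AKT inhibitor PHLDA3 and the survival factor TRIAP1. All 10 were found once among the 26256 rows of the table of untreated cells and once among the 55736 rows of the table of the Nutlin-3a experiment, and all 10 passed the filter on low counts in both.

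MCF10A is a line of human breast epithelial cells that grow without limit but are not cancerous. The first comparison set parental MCF10A cells (n = 2), which had no treatment, against G12V cells (n = 2), which are MCF10A cells that received an HRas oncogene with the G12V mutation (genotype H-RAS Gv12 in the labels) by lentivirus, together with a GFP vector, and were selected in hygromycin. It asks how the oncogene changed expression. The sources used here do not say whether the parental cells received a vector or whether the G12V cells were one clone. The second comparison set parental MCF10A cells given 10 µM Nutlin-3a for 4 h (n = 3) against the same cells given its vehicle DMSO for 4 h (n = 3), without the oncogene. Nutlin-3a is a small molecule that blocks the binding of MDM2 to p53. All replicates are called biological, without further detail, and p-values measure the spread between these libraries.

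Poly(A) RNA was sequenced and the authors deposited raw counts per gene. The total counts per library were 21538593 to 23683975 in the untreated table and 15453226 to 17378734 in the Nutlin-3a table. Levels are given as CPM, counts scaled to a library of 1000000 counts after TMM normalization. Since the tables rest on different annotations, levels were not compared between them, and since no transcript lengths were given, levels were not compared between genes. HRAS had 72.6 and 65.9 CPM in MCF10A and 631 and 515 CPM in G12V cells. The summed level of 5 epithelial markers was 6199.6 to 7680.0 CPM in MCF10A and 944 to 1229 CPM in G12V cells, where KRT14 and CDH1 were below 1 CPM. It was 3193 to 5552 CPM with DMSO and 3459 to 5967 CPM with Nutlin-3a. The summed level of 5 mesenchymal markers was 1658 to 2082 CPM in MCF10A and 1609.6 to 2225 CPM in G12V cells. In the untreated table the immune markers summed to 18.0 to 39.6 CPM and the endothelial markers to 7.91 to 32.2 CPM. There 3 of the 4 immune and 2 of the 4 endothelial markers were below 1 CPM in both MCF10A and G12V cells. The sums came mostly from the remaining markers. PTPRC, CD3E, CDH5 and VWF were below 1 CPM in every group of both tables.

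GADD45A and DDB2 each hold, downstream of their start, a sequence that resembles the DNA element of p53, and these sequences are shown because p53 acts on its targets through that element. The p53 consensus, taken here as 2 half-sites of 10 bases without a spacer, was searched within 5 kb on each side of the start of all 13529 genes tested in the Nutlin-3a table, in hg19. Distances of a match use the starts of the Nutlin-3a table, where GADD45A starts at 68150744. The consensus reads the same on both strands. The C and the G at the core of each half-site were required. A match with at most 1 mismatch was found in 1.11% of the 13529 windows, in 3 of the 10 genes (DDB2, GADD45A and RRM2B) and in 4 of 18 other known p53 targets. In GADD45A, on the plus strand of chr1:68152418-68152517, the match begins after 40 flanking bases, is printed in capitals and lies in intron 3 of the 4-exon transcript, with its centre 1723 bases after the start.
GADD45A: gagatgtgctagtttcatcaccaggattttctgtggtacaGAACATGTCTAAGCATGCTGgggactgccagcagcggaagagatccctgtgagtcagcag
In DDB2, on the plus strand of chr11:47236515-47236544, the match lies in a non-coding exon with its centre 36 bases after the start. Capitals mark its 4 core letters.
DDB2: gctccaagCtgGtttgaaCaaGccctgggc
In RRM2B the match lies in an intron, with its centre 2269 bases after the start. With at most 2 mismatches, 7.81% of all windows and the same 3 of the 10 genes held a match. With at most 3 mismatches the share was 43.0% of all windows and 9 of the 10 genes. PHLDA3 had no match with 3 mismatches or fewer. A match of letters is a description and not a site of binding.

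After 4 h of Nutlin-3a, all 10 genes stood higher than after DMSO (51.8% of all tested genes did), and in all 10 the lowest Nutlin-3a library was above the highest DMSO library. Of all genes tested, 3.70% were separated in this direction. The median log2 fold change (log2FC) of the 10 genes was 0.92, against 0.01 over all 13529 genes tested, and their range was 0.44 to 1.63. Differentially expressed (DE) genes were those with an adjusted p under 0.05, by edgeR's quasi-likelihood test over all tested genes, and an absolute log2FC above 0.5. Of the 10 genes, 2 (SESN1 and RRM2B) rose by this rule, where 21 of all tested genes did, 0.155%. Libraries of both treatments carry numbers from 1 to 3, and those of the same number deviated together. With this number as a block in the fit, 9 of the 10 genes rose, all but DDB2, where 95 of all tested genes did, 0.702%. Leaving out any 1 of the 6 libraries, without the block, left 7 to 11 DE genes instead of 23 (0.170%) in both directions, which included SESN1 each time.

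**Figure D1:**
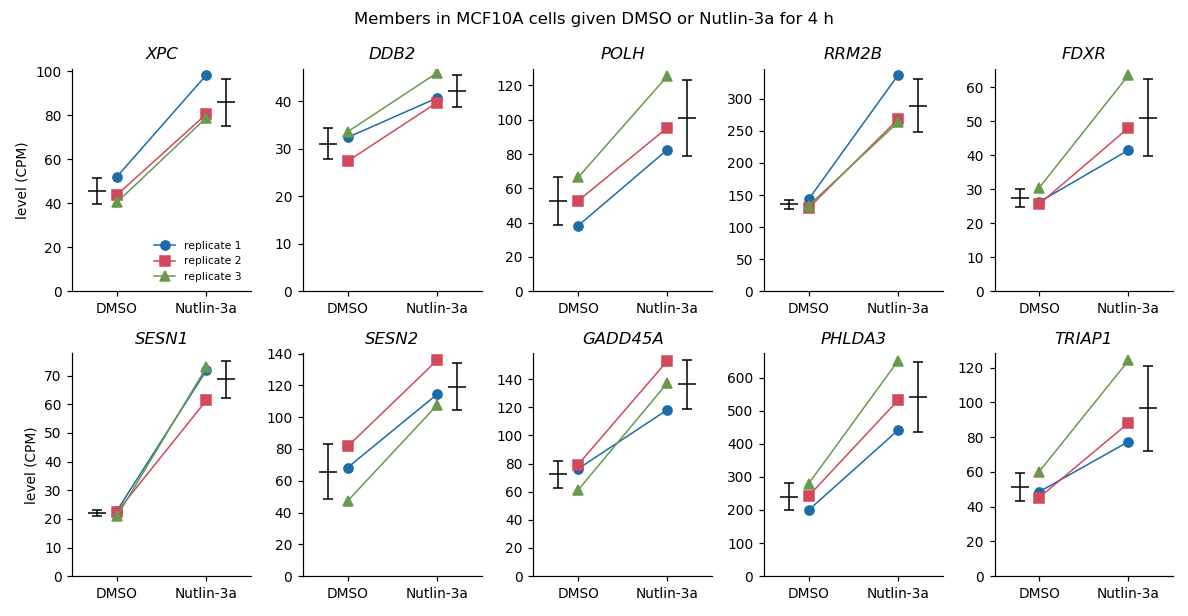
Level of each of the 10 genes in CPM (vertical axis of each panel, from 0) in the 3 DMSO and 3 Nutlin-3a libraries. Points are libraries, lines join libraries of the same replicate number, and black bars are the mean ± SD. In every panel the 3 Nutlin-3a libraries lie above the 3 DMSO libraries, with the largest ratio in SESN1 (20.9 to 22.9 CPM against 61.3 to 72.8 CPM) and the smallest in DDB2 (27.4 to 33.5 CPM against 39.7 to 45.9 CPM).

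SESN1, on chromosome 6 from 109307640 to 109415708 on the minus strand, encodes a sestrin, a leucine-sensing and antioxidant stress protein that restrains mTORC1 through the GATOR complexes. It had 22.9, 22.5 and 20.9 CPM with DMSO and 71.8, 61.3 and 72.8 CPM with Nutlin-3a, in the order of the replicate numbers. Positions are given in hg19, as in the untreated table. The spread within each treatment was small beside the distance between them. SESN1 rose 3.11-fold, a log2FC of 1.63 (SE 0.11, adjusted p = 0.00131), which ranked 18 of 13529. The log2 differences of its same-number pairs were 1.65, 1.45 and 1.80, and the lowest of these was above every pair of the other 9 genes, the highest of which was 1.23 in RRM2B. SESN1 remained DE without any 1 of the libraries.

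SESN2 is the sestrin best known as a target of both p53 and ATF4, the transcription factor of amino acid and unfolded protein stress. It lies on chromosome 1 from 28585963 to 28609002 on the plus strand. Its levels were 68.3, 81.5 and 47.3 CPM with DMSO and 114, 136 and 107 CPM with Nutlin-3a. The DMSO libraries differed widely and so did the Nutlin-3a libraries, without overlap. Its log2FC was 0.86 (SE 0.19, adjusted p = 0.339) without the block and 0.88 (SE 0.10, 95% interval 0.67 to 1.10, adjusted p = 3.52e-04) with it. SESN3, the third sestrin, had a log2FC of 0.09 (SE 0.21). Of 15 genes of a list of SESN3, GATOR and mTORC1 components, TSC1, TSC2 and DDIT4, 0 were DE with or without the block, and their median log2FC was 0.03. Of 13 genes of the ATF4 response, 1 rose with the block, ATF3 (log2FC 0.99, adjusted p = 0.00179), and 0 without it, with a median of -0.02 over the list.

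RRM2B, on chromosome 8 from 103216729 to 103251346 on the minus strand, encodes p53R2, the ribonucleotide reductase subunit that supplies deoxynucleotides outside S phase, to DNA repair and mitochondrial DNA. It had 143, 129.8 and 133 CPM with DMSO and 337, 268 and 263 CPM with Nutlin-3a. The DMSO libraries lay close together and the Nutlin-3a libraries stood clear of them. RRM2B rose 2.13-fold, a log2FC of 1.09 (SE 0.13, adjusted p = 0.0211). The call rests on several libraries, since the adjusted p was 0.0934, 0.165 and 0.128 without DMSO replicate 1, 2 and 3 and 0.0756 without Nutlin-3a replicate 2. The log2FC was 0.97 to 1.16 when any 1 library was left out. With the block the adjusted p was 1.07e-05.

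RRM1 and RRM2 encode the other subunits of ribonucleotide reductase. RRM1, the large subunit, had a log2FC of 0.00 (SE 0.13), with 205 to 232 CPM with DMSO and 185 to 246 CPM with Nutlin-3a. RRM2, the small subunit of S phase, stood at 384, 363 and 336 CPM with DMSO and at 304, 261 and 267 CPM with Nutlin-3a, each of the latter below each of the former. Its log2FC was -0.38 (SE 0.11, adjusted p = 0.711), or an adjusted p of 0.0172 with the block, which stays short of DE because the change is under 0.5. Of 13 genes of deoxynucleotide supply without RRM2B, 0 were DE with or without the block, and their median log2FC was 0.00.

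Among the repair genes, XPC, on chromosome 3 from 14186648 to 14220172 on the minus strand, encodes the damage sensor that starts nucleotide excision repair across the genome. It had 52.1, 43.8 and 40.4 CPM with DMSO and 98.2, 80.5 and 78.8 CPM with Nutlin-3a. Replicate 1 was the highest library of both treatments. XPC had a log2FC of 0.92 (SE 0.14, 95% interval 0.60 to 1.23) with an adjusted p of 0.0650, and with the block 0.92 (SE 0.08, adjusted p = 5.52e-05). Its same-number pairs differed by 0.91, 0.88 and 0.96, a narrow range like that of PHLDA3 (1.14, 1.13 and 1.22).

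DDB2, on chromosome 11 from 47236493 to 47260769 on the plus strand, encodes the ultraviolet damage binding protein that hands lesions to XPC. It had the smallest log2FC of the 10 genes. Its levels were 32.4, 27.4 and 33.5 CPM with DMSO and 40.6, 39.7 and 45.9 CPM with Nutlin-3a, without overlap. Its log2FC was 0.44 (SE 0.12, 95% interval 0.15 to 0.72, adjusted p = 0.662), and with the block 0.44 (SE 0.09, adjusted p = 0.0240), which is under the limit of 0.5 on the fold change. Its highest pair difference, 0.54, was below the lowest pair difference of each of the other 9 genes. Of the 3 genes with a consensus match of at most 1 mismatch, DDB2 holds the match nearest to its start. DDB1, the partner of DDB2, had a log2FC of 0.05 (SE 0.12). Of 27 genes of nucleotide excision repair tested beside XPC and DDB2, 0 were DE with or without the block, and the median log2FC was 0.01.

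POLH, on chromosome 6 from 43543878 to 43588260 on the plus strand, encodes the polymerase eta that copies past ultraviolet lesions. It had 38.2, 52.7 and 66.4 CPM with DMSO and 82.6, 95.4 and 125 CPM with Nutlin-3a. The libraries of each treatment were spread in the same order, so that its error was far smaller with the block. POLH had a log2FC of 0.95 (SE 0.22, 95% interval 0.44 to 1.46, adjusted p = 0.356) without the block and 0.96 (SE 0.08, adjusted p = 5.73e-05) with it. The related polymerases POLI and POLK had log2FC values of 0.04 (SE 0.27) and -0.05 (SE 0.13). In the list of 10 translesion synthesis genes 0 were DE with or without the block, with a median of -0.02.

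FDXR, on chromosome 17 from 72858619 to 72869156 on the minus strand, encodes ferredoxin reductase, which passes electrons from NADPH to the mitochondrial ferredoxins for steroid and iron-sulfur cluster synthesis. Its levels were 26.3, 25.6 and 30.5 CPM with DMSO and 41.6, 48.1 and 63.6 CPM with Nutlin-3a. FDXR had a log2FC of 0.90 (SE 0.17, 95% interval 0.51 to 1.28, adjusted p = 0.186) without the block and 0.88 (SE 0.10, adjusted p = 3.50e-04) with it. Of 10 tested ferredoxin and iron-sulfur assembly genes, the partners of the reductase, 0 were DE with or without the block, with a median log2FC of 0.01.

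GADD45A, PHLDA3 and TRIAP1 act in stress signaling and survival. GADD45A, on chromosome 1 from 68150860 to 68154021 on the plus strand, encodes a small protein that binds PCNA, p21 and the kinase MTK1. It had 76.2, 79.3 and 61.2 CPM with DMSO and 118, 153 and 137 CPM with Nutlin-3a. The treatments did not overlap, with a log2FC of 0.91 (SE 0.14, adjusted p = 0.0718) without the block and 0.91 (SE 0.10, adjusted p = 3.11e-04) with it. Its family members GADD45B, with a log2FC of -0.16 (SE 0.15), and GADD45G, with 0.44 (SE 0.43) at about 1 CPM or less on average, were not DE.

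PHLDA3, on chromosome 1 from 201433412 to 201438299 on the minus strand, encodes a pleckstrin homology protein that competes with AKT for membrane lipids. It had 199.8, 242 and 279.6 CPM with DMSO and 441, 532 and 651 CPM with Nutlin-3a. Both treatments ran in the same order of libraries. PHLDA3 had a log2FC of 1.17 (SE 0.18, adjusted p = 0.0675) without the block and 1.16 (SE 0.07, adjusted p = 2.53e-06) with it. PHLDA1 and PHLDA2, which share its domain, had log2FC values of 0.03 (SE 0.20) and 0.02 (SE 0.16).

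TRIAP1, on chromosome 12 from 120881764 to 120884215 on the minus strand, encodes a mitochondrial protein that carries phosphatidic acid with PRELI proteins and opposes apoptosis. Its levels were 48.6, 45.3 and 60.2 CPM with DMSO and 77.5, 88.2 and 124 CPM with Nutlin-3a. TRIAP1 had a log2FC of 0.91 (SE 0.19, 95% interval 0.47 to 1.35, adjusted p = 0.267) without the block and 0.89 (SE 0.09, adjusted p = 1.97e-04) with it. Of 12 relatives and partners of GADD45A, PHLDA3 and TRIAP1, 0 were DE with or without the block, and the median log2FC was 0.03.

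In the 7 lists above, which held no DE gene without the block, DESeq2 and edgeR's exact test also called 0. A fold change above 1.3 at an unadjusted p under 0.05 was found in 1 gene each of the deoxynucleotide and ATF4 lists and in 0 of the other 5. All 10 of the genes followed here had an unadjusted p under 0.05, as did 3.42% of all tested genes. DESeq2 and the exact test each called 9 of the 10, where they called 91 and 84 of all 13529 tested genes. Among 18 tested genes of a list of other p53 targets 7 rose, 14 with the block, and their median log2FC was 0.86, beside 0.92 for the 10 genes. BTG2 (2.85, SE 0.14), GDF15 (2.63, SE 0.15), MDM2 (2.54, SE 0.18) and CDKN1A (2.16, SE 0.13), the targets with the smallest p, were DE without any 1 of the libraries. Each of these 4 log2FC values was above that of SESN1.

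**Figure D2:**
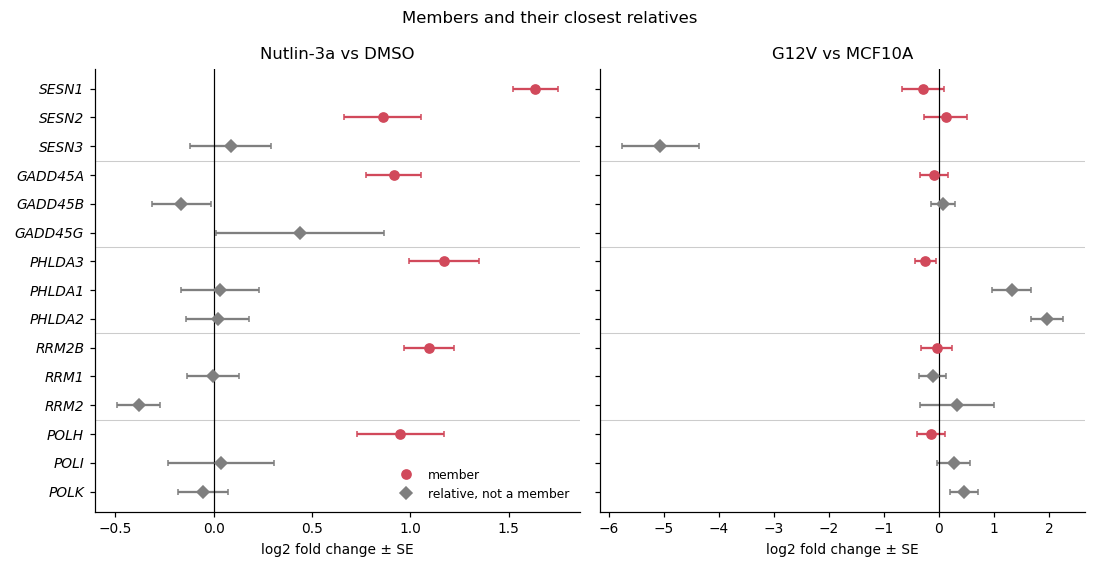
Log2FC (horizontal axis, with its own range in each panel) of 6 of the 10 genes (circles) and of their relatives (diamonds), for Nutlin-3a vs DMSO and for G12V vs MCF10A. Bars are ± SE, and GADD45G was not tested in the untreated table. With Nutlin-3a the sestrin SESN1 stood at 1.63 beside SESN3 at 0.09 and RRM2B at 1.09 beside RRM1 at 0.00, while in G12V cells SESN3 stood at -5.06 and PHLDA2 at 1.97.

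In 5 of the 10 genes another gene starts within 1 kb on the opposite strand, which offers a comparison within the same stretch of DNA. These are LSM3 beside XPC, XPO5 beside POLH, a non-coding gene (KB-431C1.4) beside RRM2B, CEP57L1 beside SESN1 and GATC beside TRIAP1. The stretches between the starts of 2 pairs, which are 66 and 26 bases apart in the untreated table, are printed from hg19 on the strand of POLH and of TRIAP1 to show how short they are. The first covers chr6:43543813-43543877 on the plus strand and the second chr12:120884216-120884240 on the minus strand.
POLH and XPO5: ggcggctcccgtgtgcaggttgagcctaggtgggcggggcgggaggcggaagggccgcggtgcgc
TRIAP1 and GATC: gagcgacgcgcctgagagtgatgac
None of these 5 neighbours was DE with Nutlin-3a, with or without the block. XPO5 had 107, 143 and 129.7 CPM with DMSO and 119, 118 and 116 CPM with Nutlin-3a, a log2FC of -0.10 (SE 0.12, 95% interval -0.38 to 0.18). GATC had 27.4, 28.5 and 33.5 CPM with DMSO and 28.0, 32.7 and 35.3 CPM with Nutlin-3a, a log2FC of 0.11 (SE 0.14, 95% interval -0.21 to 0.42). The groups overlapped in both genes. CEP57L1 stood at 14.9 ± 0.107 CPM (SD, n = 3) with DMSO and 13.3 ± 0.435 CPM (SD, n = 3) with Nutlin-3a, a log2FC of -0.16 (SE 0.13). Its groups did not overlap, since each Nutlin-3a library was below each DMSO library, although its 95% interval included 0. LSM3 stood at 60.4 to 77.5 and 65.8 to 70.1 CPM, with a log2FC of 0.02 (SE 0.12). KB-431C1.4, at 2.24 to 6.10 CPM over the 6 libraries, was too low for a narrow interval (-0.71 to 1.23).

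The log2 ratio of each gene to its neighbour in the same library was higher with Nutlin-3a by 1.79 in SESN1, 1.06 in POLH, 0.89 in XPC, 0.88 in RRM2B and 0.79 in TRIAP1. In SESN1 and POLH this exceeds their own log2FC (1.63 and 0.95), since the estimates of their neighbours were negative. The ratios of the 2 treatments did not overlap in any pair except that of RRM2B. An exact two-sided permutation test of 3 against 3 libraries gave p = 0.1 for each of the other 4 pairs, the smallest it can give, and p = 0.2 for RRM2B, and none of the 5 values was lower after Benjamini-Hochberg adjustment over the pairs. The annotation of the Nutlin-3a table lets LSM3 overlap XPC by 426 bases, and lets GTPBP2 overlap POLH by 13649 bases. GTPBP2 itself had a log2FC of -0.32. The sources used here do not say whether the counting used strand, so reads within an overlap cannot be assigned with certainty.

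**Figure D3:**
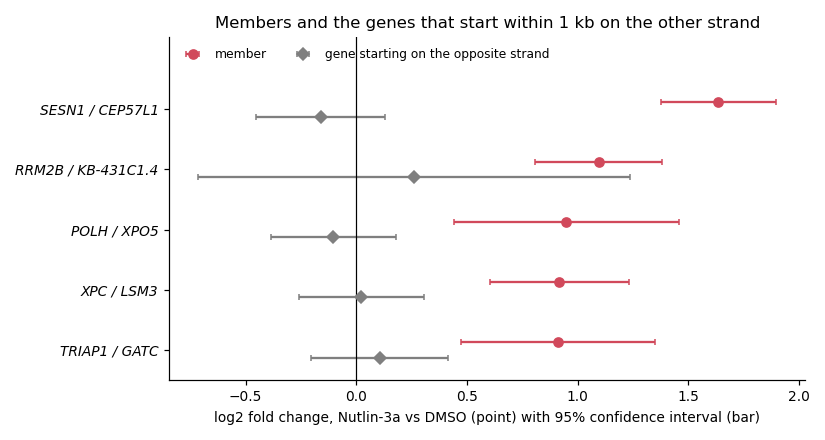
Log2FC for Nutlin-3a vs DMSO (horizontal axis) of 5 of the genes (circles) and of the gene that starts within 1 kb on the opposite strand (diamonds). Bars are 95% confidence intervals from the fit without the block. The intervals of the 5 neighbours include 0, and those of SESN1, RRM2B, POLH, XPC and TRIAP1 lie above 0.

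In G12V cells the 10 genes were divided in direction. Relative to MCF10A, 3 had a positive log2FC (49.9% of all tested genes did) and 7 a negative one, their median was -0.12 against 0.00 over all 14376 genes tested, and their median absolute log2FC was 0.24 against 0.36. None of the 10 genes was DE, by the same edgeR test, where 1575 of all tested genes were, 11.0%. FDXR alone of the 10 had an unadjusted p under 0.05 (25.6% of all genes did). DESeq2 and edgeR's exact test each called FDXR alone of the 10, where they called 2307 and 2536 of all 14376 tested genes. MCF10A and G12V libraries did not overlap in 3 members of the group, FDXR (higher, as in 27.5% of all genes) and DDB2 and PHLDA3 (lower, as in 27.4% of all genes). The count of 1575 depends on the libraries. It was 0 without MCF10A replicate 1, with 2830 genes at an unadjusted p under 0.05, and it was 1158, 2129 and 1526 without MCF10A replicate 2, G12V replicate 1 and G12V replicate 2.

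**Figure D4:**
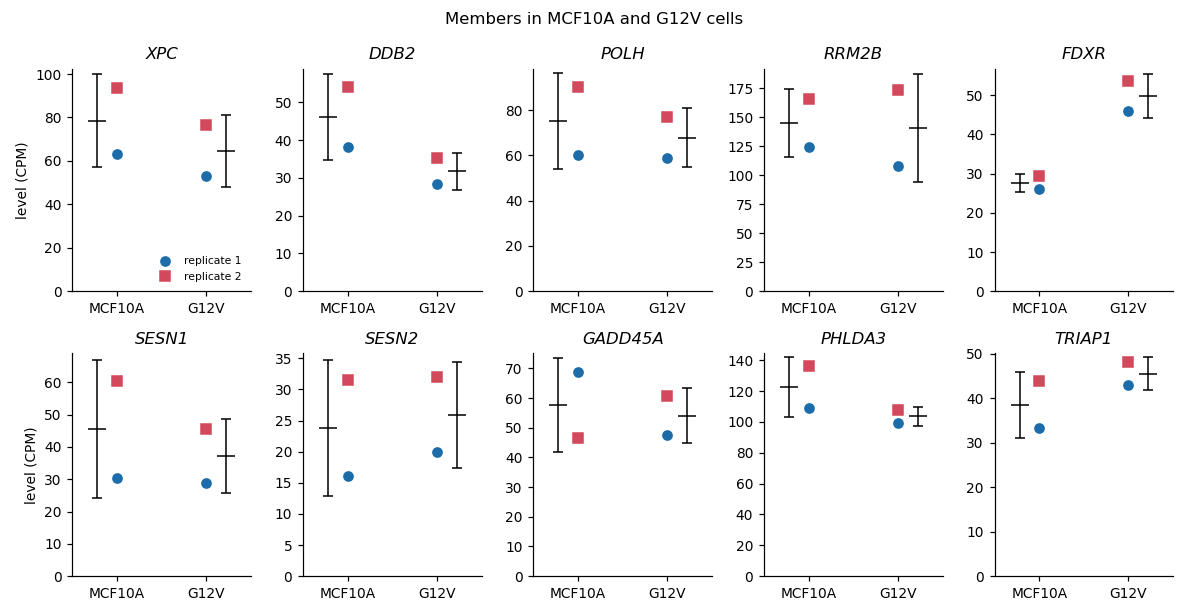
Level of each of the 10 genes in CPM (vertical axis of each panel, from 0) in the 2 MCF10A and 2 G12V libraries. Points are libraries (circle, replicate 1, and square, replicate 2) and black bars are the mean ± SD. Both G12V libraries of FDXR (45.9 and 53.7 CPM) lie above both MCF10A libraries (26.0 and 29.3 CPM), while most other genes overlap.

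FDXR had 26.0 and 29.3 CPM in MCF10A and 45.9 and 53.7 CPM in G12V cells. It stood 1.80-fold higher, a log2FC of 0.85 (SE 0.20, 95% interval 0.35 to 1.34, adjusted p = 0.0524), just short of the threshold. The adjusted p was 0.0150 with DESeq2, 0.0142 with the exact test and 0.0423 without G12V replicate 1, and it reached 0.244 without MCF10A replicate 1. The log2FC was 0.73 to 0.95 when any 1 library was left out. It was positive in both same-number comparisons, at 0.82 and 0.87. Of 11 tested ferredoxin and iron-sulfur assembly genes 0 were DE, with a median log2FC of 0.09, while DESeq2 and the exact test called none either.

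DDB2 had 38.1 and 54.1 CPM in MCF10A and 28.3 and 35.2 CPM in G12V cells. The log2FC was -0.54 (SE 0.25, 95% interval -1.16 to 0.08, adjusted p = 0.256), and -0.75 to -0.26 when any 1 library was left out. PHLDA3, with 109 and 137 CPM in MCF10A and 99.2 and 108 CPM in G12V cells, had a log2FC of -0.25 (SE 0.19, 95% interval -0.72 to 0.22). In both genes the lower MCF10A library lay near the higher G12V library.

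The remaining 7 genes overlapped between the lines. XPC had 63.3 and 93.6 CPM in MCF10A and 53.1 and 76.4 CPM in G12V cells, a log2FC of -0.28 (SE 0.28). POLH had 60.1 and 90.0 CPM and then 58.7 and 77.0 CPM, a log2FC of -0.15 (SE 0.26). The intervals of both repair genes included 0. RRM2B had 124 and 166 CPM in MCF10A and 108 and 174 CPM in G12V cells, a log2FC of -0.04 (SE 0.29, 95% interval -0.74 to 0.66). SESN1, which rose most with Nutlin-3a, had 30.4 and 60.6 CPM and then 29.0 and 45.4 CPM, a log2FC of -0.29 (SE 0.39, 95% interval -1.23 to 0.65). These intervals are wide enough to hold a change of over 1.5-fold in either direction. SESN2 had 16.1 and 31.5 CPM in MCF10A and 19.9 and 31.9 CPM in G12V cells (log2FC 0.12, SE 0.39). GADD45A had 68.8 and 46.4 CPM and then 47.5 and 60.7 CPM (-0.09, SE 0.26). TRIAP1 had 33.4 and 43.9 CPM and then 42.9 and 48.1 CPM (0.24, SE 0.22). In XPC, POLH, RRM2B, SESN1, SESN2 and GADD45A the sign of the log2FC turned when 1 library was left out.

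The spread of these genes in the untreated table followed the library number. Replicate 2 was higher than replicate 1 in 9 of the 10 genes in MCF10A, all but GADD45A, and in 10 of 10 in G12V cells, where 49.4% and 54.9% of all tested genes were. The median log2 difference of replicate 2 and replicate 1 was 0.46 in MCF10A and 0.37 in G12V cells, against -0.01 and 0.05 over all genes. RRM2, the subunit of S phase, moved the other way, with 298 and 93.1 CPM in MCF10A replicates 1 and 2 and 371 and 121 CPM in G12V replicates 1 and 2. What set the replicates apart was not tested.

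Some relatives of the 10 genes were DE between G12V and MCF10A cells. SESN3 had 7.91 and 24.6 CPM in MCF10A and 0.385 and 0.580 CPM in G12V cells, and fell by 5.06 on the log2 scale (SE 0.69, adjusted p = 0.00950), whereas SESN1 and SESN2 were not DE. PHLDA2 had 58.1 and 34.4 CPM in MCF10A and 168 and 194 CPM in G12V cells, a log2FC of 1.97 (SE 0.29, adjusted p = 0.0114). PHLDA1 stood at 156 to 196 CPM and 298 to 581 CPM (1.32, SE 0.35, adjusted p = 0.0690). Without MCF10A replicate 1 neither SESN3 nor PHLDA2 was DE, with an adjusted p of 0.0618 and 0.0775.

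Of 28 nucleotide excision repair genes, 1 rose in G12V cells, CCNH (1.20, SE 0.23, adjusted p = 0.0247), a subunit of the kinase of TFIIH, and its call was lost without MCF10A replicate 1 or MCF10A replicate 2 (adjusted p = 0.150 and 0.0950). None of 10 translesion synthesis genes and none of 13 genes of deoxynucleotide supply was DE in that fit, while DESeq2 and the exact test each called 1 of the latter. Of 15 genes of the sestrin and GATOR list SESN3 fell and the median was 0.24. Of 13 genes of the ATF4 response 12 had a positive log2FC and the median was 1.05, but only VLDLR rose (4.79, SE 0.84, adjusted p = 0.0200), and SLC3A2 fell by 1.26 on the log2 scale (SE 0.23, adjusted p = 0.0232). DESeq2 and the exact test each called 7 of these 13 higher and 1 lower, where they called 2307 and 2536 of all 14376 tested genes. VLDLR lost its call without MCF10A replicate 1 (adjusted p = 0.194), and SLC3A2 without that library (0.144), G12V replicate 1 (0.0566) or G12V replicate 2 (0.0559). Of the 19 other p53 targets 1 rose, PMAIP1 (1.22, SE 0.26, adjusted p = 0.0365), and SFN and TP53I3 fell by 2.25 and 1.03 on the log2 scale (SE 0.23 and 0.20, adjusted p = 0.00418 and 0.0251), with a median of 0.20 over the list. By the quasi-likelihood test 11.0% of all tested genes were DE. DESeq2 and the exact test each called 3 of the 19 higher and 2 lower, beside their 2307 and 2536 genes in all. SFN and TP53I3 lost their calls without MCF10A replicate 1 (adjusted p = 0.0781 and 0.187), and PMAIP1 without that library (0.223), MCF10A replicate 2 (0.0548) or G12V replicate 2 (0.0798). The summed epithelial markers given above were lower in G12V than in MCF10A cells, and their part in these differences was not tested. In bulk RNA, fewer cells of a type and less RNA per cell cannot be told apart.

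Without the block, the neighbours of the 5 paired genes were not DE in G12V cells. CEP57L1 beside SESN1 then had a log2FC of 0.72 (SE 0.26, 95% interval 0.08 to 1.36, adjusted p = 0.153). XPO5 beside POLH had 0.45 (SE 0.20, adjusted p = 0.234). With the block CEP57L1 was DE (0.71, SE 0.21, adjusted p = 0.0240), and XPO5 was not, since its log2FC of 0.46 was under 0.5. The estimates of both were above 0 and those of SESN1 and POLH below it. The intervals of SESN1 and POLH included 0, and their signs turned when 1 library was left out. Without the block the interval of XPO5 also included 0 (-0.04 to 0.94).

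**Figure D5:**
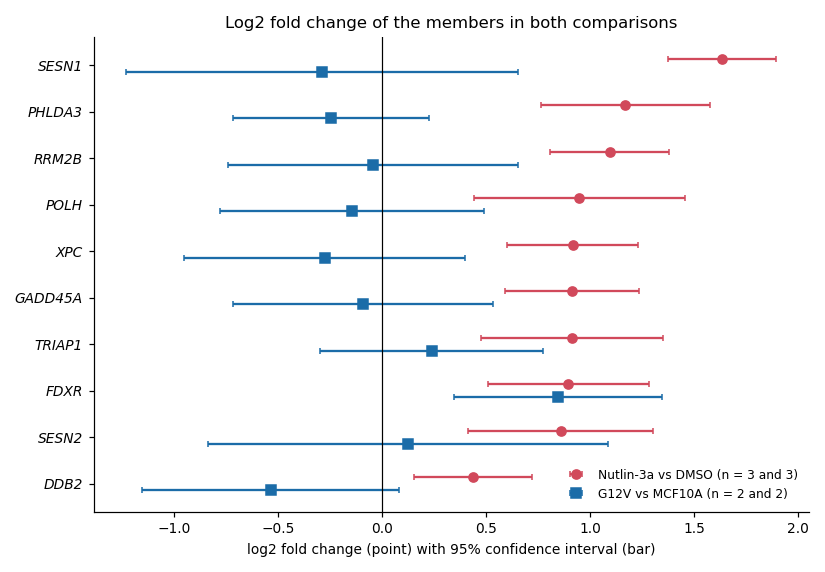
Log2FC of the 10 genes (horizontal axis) for Nutlin-3a vs DMSO and for G12V vs MCF10A. Points are estimates and bars 95% confidence intervals from edgeR's quasi-likelihood fits without the block. With Nutlin-3a all 10 intervals lie above 0, from DDB2 (0.15 to 0.72) to SESN1 (1.37 to 1.90), and in G12V cells the interval of FDXR (0.35 to 1.34) does and the other 9 include 0.

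Side by side, DDB2 had the smallest log2FC with Nutlin-3a, 0.44, and the most negative in G12V cells, -0.54. The latter rests on MCF10A replicate 2, since without it DDB2 stood at -0.26 and GADD45A, at -0.35, was more negative. FDXR had 0.90 with Nutlin-3a and 0.85 in G12V cells. SESN1, PHLDA3 and RRM2B led with Nutlin-3a, at 1.63, 1.17 and 1.09, and stood at -0.29, -0.25 and -0.04 in G12V cells. The comparisons share no libraries and were run on different annotations, and the difference between them was not tested.

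Over the 10 libraries, with log2 CPM centred within each table, the profile of SESN1 was most like the mean of the other 9 genes (Pearson r = 0.975) and those of FDXR (r = 0.702) and DDB2 (r = 0.707) were least like it. Of 9102 other genes tested in both tables with a mean log2 CPM of at least 3, the profiles most like the mean of the 10 genes were those of BTG2 (r = 0.984), SGK223 (r = 0.981), FAM212B (r = 0.979), PPM1D (r = 0.948) and EDA2R (r = 0.940). Their log2FC values with Nutlin-3a were 2.85, 0.87, 1.59, 0.92 and 1.56. BTG2 and PPM1D belong to the list of other p53 targets, and the correlations are descriptions over libraries that share treatments.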

How the data were processed

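Poly(A) RNA of MCF10A cells was sequenced by the authors, aligned to hg19 with TopHat and counted per gene with HTSeq, and the deposited tables hold raw counts. The annotations, the strand setting and the treatment of overlapping genes are not given in the sources used here. Starts in both tables count from 0 and were raised by 1. No column of values was left unassigned (0). The 2 tables were fitted apart in edgeR 4.0.16 (R 4.3.3; filterByExpr, TMM, quasi-likelihood test, Benjamini-Hochberg adjustment over all tested genes, prior count 0.125), which left 14376 and 13529 genes. SE is log2FC divided by the root of F. Intervals are at 95%. All 10 genes were named whatever their values, and of each list at most the 4 DE genes with the smallest p, besides relatives and partners chosen after their values were seen. The members and lists were chosen with earlier results of these data known.

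In the Nutlin-3a experiment libraries with the same number in the labels had correlated deviations from their treatment means (r = 0.64, 0.65 and 0.68), and the number was taken as a pairing. The negative values of the other combinations (r = -0.50 to -0.21) are no separate evidence, since deviations from a mean offset each other. The fits were tested on simulated counts with 200 changed genes, of which the fit recovered 80 (2 against 2 libraries, 14376 genes, 5 false calls) and 159 (3 against 3, 13529 genes, 13 false calls). When same-number libraries shared a deviation, the fit recovered 47 (0 false calls) and 84 (1 false call), and the fit with the block 117 (48 false calls) and 157 (14 false calls). The size of this deviation was set and added to dispersions estimated from these libraries without the block. These counts therefore do not give the error rates of the fits on the real data. Alternatives used DESeq2 1.42.0, the exact test of edgeR, other normalizations and filters, the block, a prior count of 2, an unadjusted threshold and the omission of each library. Sequences and introns came from hg19 with its gene annotation. A marker and a list gene that the rules select are not reported here.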

Additional observations from a re-analysis of the deposited data

How the results depend on the processing

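With Nutlin-3a (23 DE genes, 2 of the 10 genes), DESeq2 gave 91 DE genes, the exact test 84, no filter 99, the replicate block 165 and the unadjusted threshold 332. Of the 10 genes, DESeq2, the exact test, no filter and the block each called 9, and the unadjusted threshold 10. Leaving out 1 library gave 7 to 11 DE genes and 1 to 2 of the 10, and leaving out 1 replicate number with the block gave 9 of the 10 each time. All 10 log2 fold changes stayed above 0 under each of these alternatives. Between G12V and MCF10A cells (1575 DE genes, 0 of the 10), the exact test gave 2536 DE genes, the unadjusted threshold 3676, and leaving out 1 library 0 to 2129. FDXR was the 1 gene of the 10 that was called with DESeq2, the exact test, upper-quartile factors, library totals alone, the filter at 1 CPM in 2 libraries and the unadjusted threshold, and leaving out 1 library called 0 to 1. The labels number these libraries too, and libraries of the same number deviated together (r = 0.54), but with 2 pairs this is a hint from the data and not the design. With the replicate block 4158 of all 14376 tested genes were DE, 2071 higher and 2087 lower. Of the 10 genes 2 were DE, FDXR (log2 fold change 0.84, adjusted p = 0.00112) and DDB2 (-0.52, adjusted p = 0.0199). Of the 19 other p53 targets 6 were higher and 4 lower. This blocked fit made 48 false calls beside 117 recovered genes on simulated counts with a shared deviation, whose size was set and not taken from these libraries. Leaving out 1 library turned the sign of 6 genes, whose log2 fold changes ranged from -0.57 to 0.031 (XPC), -0.39 to 0.17 (POLH), -0.43 to 0.26 (RRM2B), -0.69 to 0.29 (SESN1), -0.26 to 0.69 (SESN2) and -0.35 to 0.24 (GADD45A). A lone library left in a group was assumed to vary like those of the other group. The cause of these shifts was not tested. With 2 libraries a group, changes of the size of the intervals above could not be resolved.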
